A study of Mus musculus with 6 samples.

Results

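The genes described here are 9 members of the annexin and S100 families of calcium-binding proteins, Anxa1, Anxa2, Anxa3, Anxa4, Anxa5, Anxa13, S100a6, S100a10 and S100a11. They were picked by name, with earlier results of these data known, from a count table of 23565 mouse genes. All 9 were present in it. The table comes from bulk RNA sequencing, and the cells were epithelial cells sorted out of small-intestinal crypts. One group of 3 libraries came from HopXCreER::Rosa26LSL-tdTomato mice and was sorted for tdTomato, and it is called Hopx-CreER here. The other 3 libraries came from Lgr5eGFP-IRES-CreER::Rosa26LSL-tdTomato mice and were sorted for both eGFP and tdTomato, and they are called Lgr5-CreER here. All mice had received 1 mg of tamoxifen 16 hours before collection, so both groups carry the reporter and have been exposed to the drug, and each CreER is driven from the locus it is named after. Hopx has been used to mark proposed reserve stem cells, and Lgr5 marks the crypt base columnar stem cell. The series text gives 3 mice per genotype, and age, sex and strain background are not given in the sources used here. Genotype and sorting gate differ together between the groups and cannot be told apart.

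Annexins bind negatively charged phospholipids in a calcium-dependent manner through a conserved core, while their N-terminal tails differ and carry the binding sites for partners. S100 proteins are small EF-hand proteins that form dimers and expose a binding surface for target proteins, several of which are annexins. The best known pairs are Anxa2 with S100a10 and Anxa1 with S100a11, and the families are known for roles in membrane repair, vesicle traffic and links between membrane and actin. In the intestine, Anxa4 and Anxa13 are typical epithelial annexins, and Anxa13 is largely confined to that epithelium in adults.

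The libraries held 10839306 to 14570555 counts each, and 3 counts correspond to 0.201 to 0.278 CPM (the count scaled for library size with TMM factors). All 8 epithelial identity genes (Epcam, Cdh1, Krt8, Krt18, Krt19, Cdx1, Cdx2 and Hnf4a) were detected, with a summed level of 16415 to 17807 CPM in Hopx-CreER and 11575 to 12198 CPM in Lgr5-CreER libraries. Krt8 made a large part of this gap, with means of 6471 and 3228 CPM. By edgeR 3 of the 8 were higher, 0 lower and 5 did not pass, beside 9.45% higher among all genes tested. Their median log2 fold change was -0.029. A pair of columns of the Lgr5-CreER group, libraries 2 and 3, share a number in their names, and which mouse gave which library is not in the labels. The p-values therefore measure the spread between these libraries, which may be technical. If that pair came from 1 animal the p-values are too small. Calls that ended with the pair summed are therefore named for the members, the other family genes and the 3 related lists. The epithelial identity and cell type marker lists were not followed as lists in that setting. Hopx-CreER library 3 stood apart from its group, with an SD of log2 differences of 0.587 and 0.562 against libraries 1 and 2, where other pairs within a group gave 0.258 to 0.341. Its column name carries a suffix after the marker that the other columns lack, and the labels do not explain it. Without Hopx-CreER library 3, the same 4 members were called.

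Among the 9 members, Anxa13, Anxa2, S100a6 and Anxa5 were higher in Hopx-CreER cells by 2.63-fold to 3.72-fold. The most abundant member, Anxa4, and S100a11 did not pass the test, with ratios of 1.05 and 0.929. S100a10 had a 1.37-fold ratio that did not pass the test, Anxa3 was low in both groups, and Anxa1 was close to the limit of detection. Because the members were chosen with earlier results of these data known, the shares and medians below describe this set and measure no excess. Of the 9 members, 8 passed the filter on low counts and entered the test. Among those 8, 4 were higher at an edgeR adjusted p under 0.05 and 0 were lower, while 12.8% of all 12439 genes tested were called, 9.45% as higher and 3.3% as lower in Hopx-CreER cells. At an unadjusted p under 0.05, 5 members were higher and 0 lower by edgeR, and DESeq2 and limma-voom also called 0 lower. Of all genes tested, 1176 were higher and 410 lower, a split that became 938 and 729 with library totals alone as scaling and 1044 and 1037 with offsets for GC content, and the 4 calls among the members held in both. The median log2 fold change of the 8 was 1.00, against -0.033 over all genes tested. All 3 Hopx-CreER libraries lay above all 3 Lgr5-CreER libraries for 5 of the 8 (Anxa2, Anxa5, Anxa13, S100a6 and S100a10), a pattern found in 18.8% of all genes tested. Each library is of bulk RNA, so more cells of a type that makes a transcript and more of that transcript per cell cannot be told apart.

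**Figure D1:**
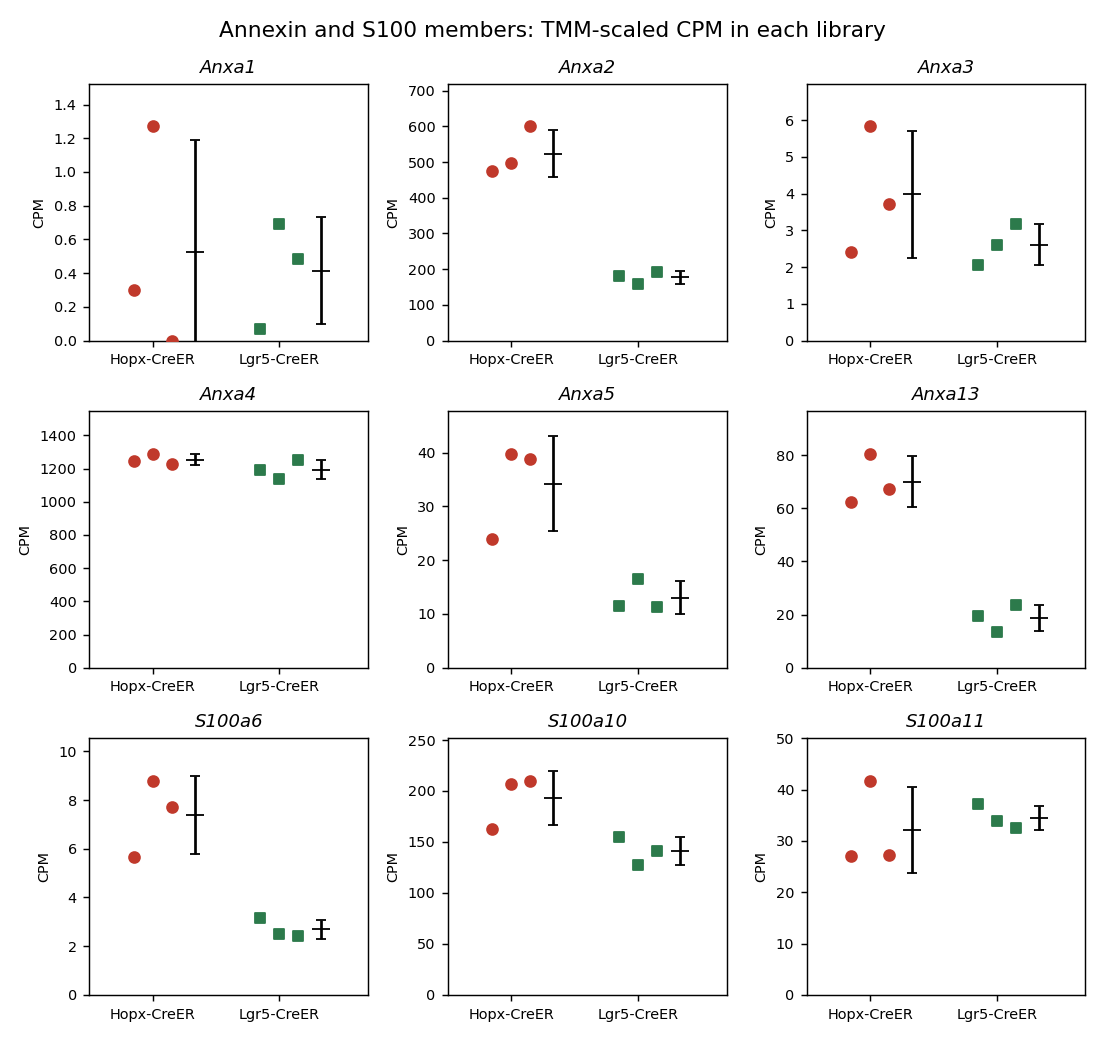
Level of each of the 9 members in CPM on a linear axis from 0, with red circles for the 3 Hopx-CreER libraries, green squares for the 3 Lgr5-CreER libraries, in order of library number, and a bar for the mean and SD of each group (cut at 0 for Anxa1). Anxa2, Anxa5, Anxa13, S100a6 and S100a10 show no overlap between groups, while Anxa1, Anxa3, Anxa4 and S100a11 do.

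Promoter sequence from RefSeq (GRCm38.p6) was at hand for 6 of the 9 members. It is shown for 3 members that rose (Anxa2, Anxa5 and S100a6) and for S100a11, which did not pass the test, so that genes that rose can be set beside one that did not pass. The stretch printed ends before the most upstream exon that GENCODE M21 gives for the gene, and reads 5′ to 3′ on the gene's strand. Capitals mark matches on either strand to 6 short motifs. The site of the AP-1 factors, dimers of Fos and Jun proteins, was searched as TGANTCA. The site of the TEAD factors, which work with YAP in the Hippo pathway, was searched as GGAATG, and that of the TCF/LEF factors, which carry Wnt signals to their targets, as ATCAAAG. The site of the intestinal CDX factors was searched as TTTATG. The GC box bound by Sp factors was searched as GGGCGG, and the TATA box of the core promoter as TATAAA. A match is a description of the letters and not a site in use.
Anxa2: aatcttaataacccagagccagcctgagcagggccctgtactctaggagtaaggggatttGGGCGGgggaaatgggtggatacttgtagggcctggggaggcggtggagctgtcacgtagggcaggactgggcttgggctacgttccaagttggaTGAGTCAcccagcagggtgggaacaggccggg
Anxa5: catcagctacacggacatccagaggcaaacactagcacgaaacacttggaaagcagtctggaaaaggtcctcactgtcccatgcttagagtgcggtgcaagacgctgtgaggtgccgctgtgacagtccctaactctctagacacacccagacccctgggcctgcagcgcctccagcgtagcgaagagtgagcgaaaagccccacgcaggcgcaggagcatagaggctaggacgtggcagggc
S100a6: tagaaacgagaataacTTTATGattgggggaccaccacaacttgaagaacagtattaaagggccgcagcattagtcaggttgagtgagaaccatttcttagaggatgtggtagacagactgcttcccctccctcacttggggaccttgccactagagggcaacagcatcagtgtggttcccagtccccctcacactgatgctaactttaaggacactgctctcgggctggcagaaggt
S100a11: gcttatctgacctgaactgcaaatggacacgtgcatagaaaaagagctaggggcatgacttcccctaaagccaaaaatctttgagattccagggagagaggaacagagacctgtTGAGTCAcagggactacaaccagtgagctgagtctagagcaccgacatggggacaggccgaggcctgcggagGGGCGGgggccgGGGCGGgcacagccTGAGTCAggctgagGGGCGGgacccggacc
These stretches are chr9:69453433-69453619 (plus strand), chr3:36475895-36476137 (minus strand), chr3:90612644-90612881 (plus strand) and chr3:93520246-93520487 (plus strand). Matches were counted over the 250 bases before each RefSeq start, and no 2 of the matches in these 4 genes overlap. Anxa2 held the AP-1 motif 95 to 89 bases before the start and 3 GC boxes, of which 2 and a TATA box lie in the bases not shown. S100a11 held the AP-1 motif at 136 to 130 and at 38 to 32 bases before the start, together with 3 GC boxes. S100a6 held the CDX motif, 234 to 229 bases before the start, and Anxa5 held none of the 6 motifs. Over 32851 mouse promoter windows of the same length, 6.75% held the AP-1 motif, 32.7% the GC box, 12.4% the TATA box, 10.8% the CDX motif, 12.6% the TEAD motif and 3.21% the TCF/LEF motif. The AP-1 motif was thus in the window of a member that rose and of one that did not pass. Of the members not shown, Anxa4, which did not pass either, held none of the 6 motifs before either of its 2 starts. Anxa1, which was not tested, held a TATA box 32 to 27 and the TEAD motif 236 to 231 bases before the start.

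Anxa2, which couples membranes to actin and to its partner S100a10, had the smallest adjusted p of the members. It stood at 474, 498 and 600 CPM in Hopx-CreER libraries 1, 2 and 3 and at 180, 158 and 192 CPM in the Lgr5-CreER libraries. The lowest Hopx-CreER library was thus well above the highest Lgr5-CreER library, and the highest value was that of Hopx-CreER library 3. The means were 524.1 ± 67.2 and 176.7 ± 17.0 CPM (SD, n = 3), a log2 fold change of 1.57 ± 0.13 (SE) with an edgeR adjusted p of 0.000379. Anxa2 (ENSMUSG00000032231.14) is a protein-coding gene on the plus strand of chromosome 9, 69453620 to 69491795 (GRCm38). The antisense gene Gm16144 overlaps it, and since the library kit does not mark strand their reads cannot be told apart there, but Gm16144 was given 9 counts in all against 25959 for Anxa2. Likewise the opposite-strand genes that overlap Anxa4 and Anxa1 were given 4 and 2 counts.

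Anxa13, an intestinal annexin that is anchored in the membrane by a lipid and takes part in apical traffic, had the largest fold among the members. It measured 62.4, 80.6 and 67.3 CPM in Hopx-CreER libraries and 19.3, 13.6 and 23.5 CPM in Lgr5-CreER libraries. Every Hopx-CreER value was above every Lgr5-CreER value. The means of 70.1 ± 9.41 and 18.8 ± 4.98 CPM (SD, n = 3) gave a log2 fold change of 1.90 ± 0.21 (SE, edgeR adjusted p 0.00106), or 3.72-fold. Anxa13 (ENSMUSG00000055114.7) lies on the minus strand of chromosome 15, 58341471 to 58389244, and GENCODE M21 lists it as a processed transcript.

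Anxa5, which binds phosphatidylserine and is used as a probe for dying cells, rose 2.63-fold. Hopx-CreER libraries held 24.0, 39.8 and 38.8 CPM and Lgr5-CreER libraries 11.4, 16.5 and 11.2 CPM. Hopx-CreER library 1 was the lowest of its group and still above the highest Lgr5-CreER library, library 2. The log2 fold change was 1.39 ± 0.26 (SE, n = 3 per group) with an edgeR adjusted p of 0.00856. Anxa5 (ENSMUSG00000027712.13) lies on the minus strand of chromosome 3, 36448923 to 36475894. Anxa2, Anxa13 and Anxa5 kept their calls in each of the 17 alternatives run, with adjusted p of at most 0.00399, 0.00663 and 0.0471.

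Anxa4, an annexin of secretory and absorptive epithelia that binds membranes at raised calcium, was the most abundant member and did not pass the test. It stood at 1243, 1290 and 1227 CPM in Hopx-CreER and at 1189, 1137 and 1250 CPM in Lgr5-CreER libraries. The groups overlapped, with Lgr5-CreER library 3 above Hopx-CreER libraries 1 and 3. The log2 fold change was 0.07 ± 0.10 (SE), with a 95% interval of -0.15 to 0.29 and an edgeR adjusted p of 0.668. Its sign is not fixed, since library totals alone as scaling, which shift the median of all genes by -0.114, gave -0.042. Anxa4 (ENSMUSG00000029994.17) lies on the minus strand of chromosome 6, 86736840 to 86793584.

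Anxa3 and Anxa1 were scarce. Anxa3 measured 2.41, 5.83 and 3.71 CPM against 2.07, 2.59 and 3.17 CPM, with overlap between groups and a log2 fold change of 0.61 ± 0.40 (SE, edgeR adjusted p 0.374). The 95% interval ran from -0.31 to 1.52, so that a difference of the size seen in Anxa2 would lie only just outside it. Anxa1, which binds S100a11 and whose cleaved or released forms act on formyl peptide receptors, had 4, 15 and 0 counts in Hopx-CreER libraries and 1, 8 and 7 counts in Lgr5-CreER libraries. That is 19 against 16 counts in all, with the level of 3 counts or less reached in 1 library of each group. It did not pass the count filter and was not tested, and no difference was detectable at this depth. Anxa3 (ENSMUSG00000029484.12) lies on the plus strand of chromosome 5, 96793339 to 96845966, and Anxa1 (ENSMUSG00000024659.14) on the minus strand of chromosome 19, 20373428 to 20390944.

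S100a6, also known as calcyclin, was the S100 member that rose. It measured 5.65, 8.79 and 7.70 CPM in Hopx-CreER libraries and 3.15, 2.50 and 2.41 CPM in Lgr5-CreER libraries, from 75, 104 and 83 against 47, 29 and 35 counts. The groups did not overlap. The means were 7.38 ± 1.60 and 2.69 ± 0.40 CPM (SD, n = 3), and the log2 fold change was 1.45 ± 0.31 (SE) with an edgeR adjusted p of 0.0167. The call ended without Hopx-CreER library 2 (adjusted p 0.0578), without Lgr5-CreER library 2 (0.0756) or 3 (0.0781), and with the pair of columns that share a number summed (0.0691), while the log2 fold change ran from 1.31 to 1.63 over the 17 alternatives. S100a6 (ENSMUSG00000001025.8) lies on the plus strand of chromosome 3, 90612882 to 90624181.

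S100a10, whose EF-hands no longer bind calcium and which holds Anxa2 in a tetramer, was the S100 member with the highest level per kilobase. Values were 163, 207 and 210 CPM in Hopx-CreER and 155, 127 and 141 CPM in Lgr5-CreER libraries. The groups did not overlap, though Hopx-CreER library 1 was close to Lgr5-CreER library 1. The log2 fold change of 0.46 ± 0.13 (SE, 95% interval 0.16 to 0.76) had an edgeR adjusted p of 0.0530. It passed with DESeq2 (adjusted p 0.0298), with no count filter (0.0365) and without Hopx-CreER library 1 (0.0246), and the lowest and highest adjusted p of the 17 alternatives were 0.0246 and 0.201. S100a10 (ENSMUSG00000041959.14) lies on the plus strand of chromosome 3, 93555080 to 93564643.

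S100a11, the partner of Anxa1, gave no call. It measured 27.1, 41.7 and 27.3 CPM in Hopx-CreER and 37.1, 33.8 and 32.5 CPM in Lgr5-CreER libraries, so that Hopx-CreER library 2 was the highest of all and the other Hopx-CreER libraries the lowest. The log2 fold change was -0.11 ± 0.20 (SE, 95% interval -0.56 to 0.35, edgeR adjusted p 0.766), and it was 0.009 without Hopx-CreER library 1. S100a11 (ENSMUSG00000027907.4) lies on the plus strand of chromosome 3, 93520488 to 93526287, 28793 bases from S100a10. Reads could be shared with 5 processed pseudogenes that match its transcript at 90.6% to 99.0% identity over 227 to 303 bases, of which Gm12854 and Gm7665 are in the table with 9 and 3 counts.

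The balance between Anxa2 and its partner S100a10 did not overlap between the groups. There were 2.90, 2.40 and 2.85 Anxa2 counts per S100a10 count in Hopx-CreER libraries, and 1.17, 1.24 and 1.36 in Lgr5-CreER libraries. This ratio is taken within a library, so it does not depend on scaling, but counts are not corrected for transcript length and do not give the ratio of molecules. On the log2 scale the means were 1.438 ± 0.151 and 0.325 ± 0.111 (SD, n = 3), a difference of 1.113. By exact permutation (two-sided) p was 0.1, the smallest that 3 against 3 allows. The ratio of Anxa1 to S100a11 was not formed because Anxa1 had 0 counts in Hopx-CreER library 3.

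Per kilobase of the longest GENCODE transcript, levels can be compared between genes. In Hopx-CreER cells the order was Anxa4 (478 ± 12.4 CPM per kb, SD, n = 3), S100a10 (283 ± 38.4), Anxa2 (230 ± 29.5), S100a11 (62.7 ± 16.4), Anxa13 (58.4 ± 7.84), Anxa5 (19.75 ± 5.13), S100a6 (9.43 ± 2.04), Anxa3 (2.50 ± 1.08) and Anxa1 (0.313 ± 0.396). The libraries of S100a10 overlapped those of Anxa2, and those of S100a11 overlapped those of Anxa13, so neither pair is ordered beyond the spread. In Lgr5-CreER cells the levels per kb were 454.5 ± 21.6 for Anxa4, 206 ± 20.1 for S100a10, 77.5 ± 7.48 for Anxa2, 67.45 ± 4.71 for S100a11 and 15.65 ± 4.14 for Anxa13. They were 7.53 ± 1.73 for Anxa5, 3.43 ± 0.51 for S100a6, 1.64 ± 0.34 for Anxa3 and 0.247 ± 0.190 for Anxa1. Only Anxa2 and S100a11 overlapped there, and with the length of all exons merged S100a11 (67.45 CPM per kb) stood above Anxa2 (47.35).

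As a share of all annexin counts, Anxa4 took 62.6%, 60.8% and 57.5% in Hopx-CreER libraries and 76.35%, 77.68% and 76.48% in Lgr5-CreER libraries. Anxa2 took 23.9%, 23.5% and 28.1% against 11.6%, 10.8% and 11.7%, and Anxa13 took 3.14%, 3.80% and 3.16% against 1.24%, 0.927% and 1.44%. The groups did not overlap for any of these 3 shares, and the exact two-sided permutation p of 0.1 is the smallest possible with n = 3. Since shares sum to a whole, the lower share of Anxa4 goes with a level in CPM that did not pass the test. Within the S100 family, S100a10 took 50.3% ± 2.64 and 55.5% ± 0.71 (SD, n = 3) and S100a11 8.27% ± 1.43 and 13.6% ± 0.97, in Hopx-CreER and Lgr5-CreER libraries respectively. The summed level of the annexins was 2081 ± 82.4 CPM against 1552 ± 85.6 CPM, and that of the S100 genes 385 ± 47.3 CPM against 254 ± 22.0 CPM (SD, n = 3).

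**Figure D2:**
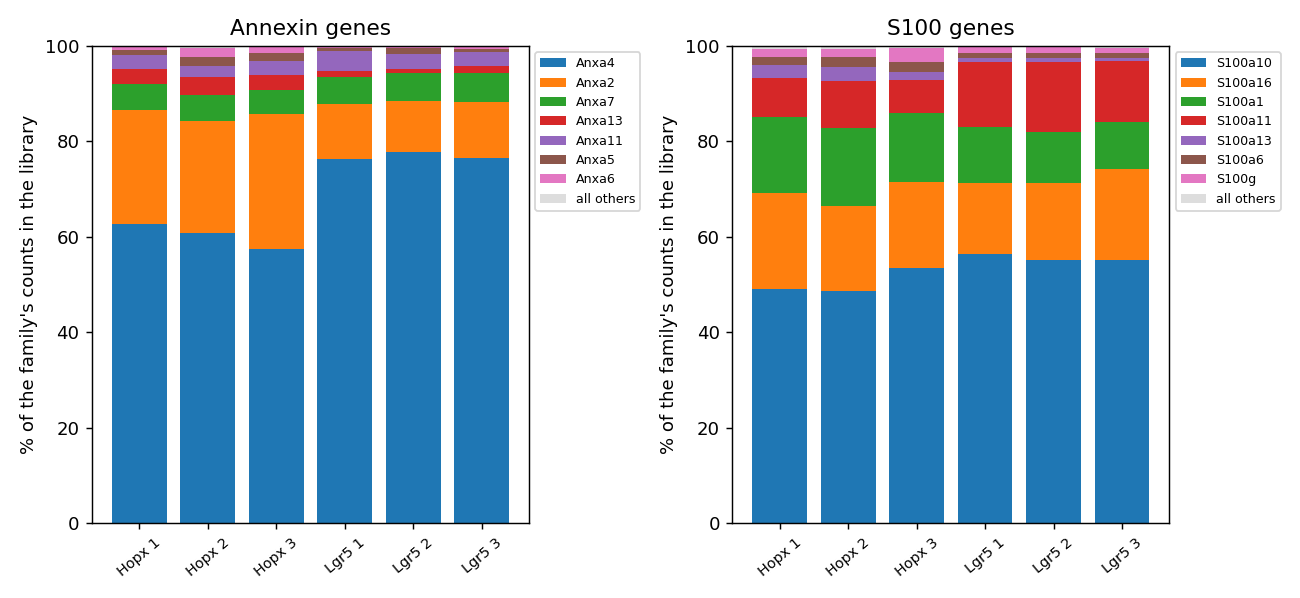
Stacked bars give the percent of all annexin counts (left) and of all S100 counts (right) that each gene took in each of the 6 libraries, with the remaining genes of the family in grey. Anxa4 took 57.5% to 62.6% of annexin counts in Hopx-CreER and 76.35% to 77.68% in Lgr5-CreER libraries, and Anxa2 took 23.5% to 28.1% against 10.8% to 11.7%.

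The remaining genes of both families held 5 that were higher by edgeR and 0 that were lower, beside 9.45% higher and 3.3% lower among all genes tested. Of the 6 other annexins listed, 5 had counts and 4 were tested, of which Anxa6 was higher and 3 did not pass. Anxa6, an annexin with a duplicated core, stood at 12.1, 41.1 and 25.1 CPM in Hopx-CreER and at 3.15, 4.23 and 5.64 CPM in Lgr5-CreER libraries. Hopx-CreER libraries differed among themselves by more than 3-fold but all lay above the Lgr5-CreER libraries, and the log2 fold change was 2.59 ± 0.44 (SE, edgeR adjusted p 0.00585). Anxa7, Anxa9 and Anxa11 had log2 fold changes of 0.30, 0.25 and 0.07 with adjusted p of 0.122 to 0.841. Anxa8 was at 0 in all libraries. Anxa10 had 2, 8 and 2 counts in Hopx-CreER libraries and 0 in each Lgr5-CreER library. With counts pooled by group, this is 4.58-fold over a floor of 3 counts in the Lgr5-CreER group. That figure takes no account of the spread between libraries, and Hopx-CreER libraries 1 and 3 were themselves below 3 counts. Anxa10 was not tested.

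Of the 13 other S100 genes listed, 11 were in the table and 5 were tested. Of these, 4 were higher and 0 lower by edgeR, beside 9.45% higher and 3.3% lower among all genes tested. S100a13, which takes part in the stress-induced export of growth factors that lack a signal peptide, measured 9.04, 13.1 and 6.77 CPM against 2.21, 1.99 and 2.0 CPM. Its log2 fold change was 2.22 ± 0.34 (SE, edgeR adjusted p 0.00376). S100a1 measured 53.1, 69.5 and 56.9 CPM against 32.1, 24.5 and 25.2 CPM (log2 fold change 1.13 ± 0.17, edgeR adjusted p 0.00382), and S100a16 67.4, 76.5 and 71.7 CPM against 41.2, 37.4 and 48.9 CPM (0.76 ± 0.14, 0.00933). In these 3 genes the groups did not overlap. The S100a16 call ended without Lgr5-CreER library 2 (adjusted p 0.0552).

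S100g, the vitamin D-induced cytosolic calcium buffer of absorptive cells, stood at 5.42, 7.02 and 11.7 CPM against 3.21, 3.2 and 2.96 CPM. Its fitted log2 fold change was 1.36 ± 0.35 (SE, edgeR adjusted p 0.0340), and it was 0.98 with an adjusted p of 0.0664 without Hopx-CreER library 3, which had the highest value. Its call also ended without any of Hopx-CreER library 2 and Lgr5-CreER libraries 1, 2 and 3 (adjusted p 0.0609 to 0.123), with limma-voom (0.0512) and with the pair of columns summed (0.107). S100a14 did not pass (log2 fold change 1.73 ± 0.54, edgeR adjusted p 0.0690). S100a3 and the neutrophil genes S100a8 and S100a9 were at 0 in all libraries, and S100a5, S100b and S100z had at most 6 counts in a group. S100a4 and S100a7a were not analysed here.

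**Figure D3:**
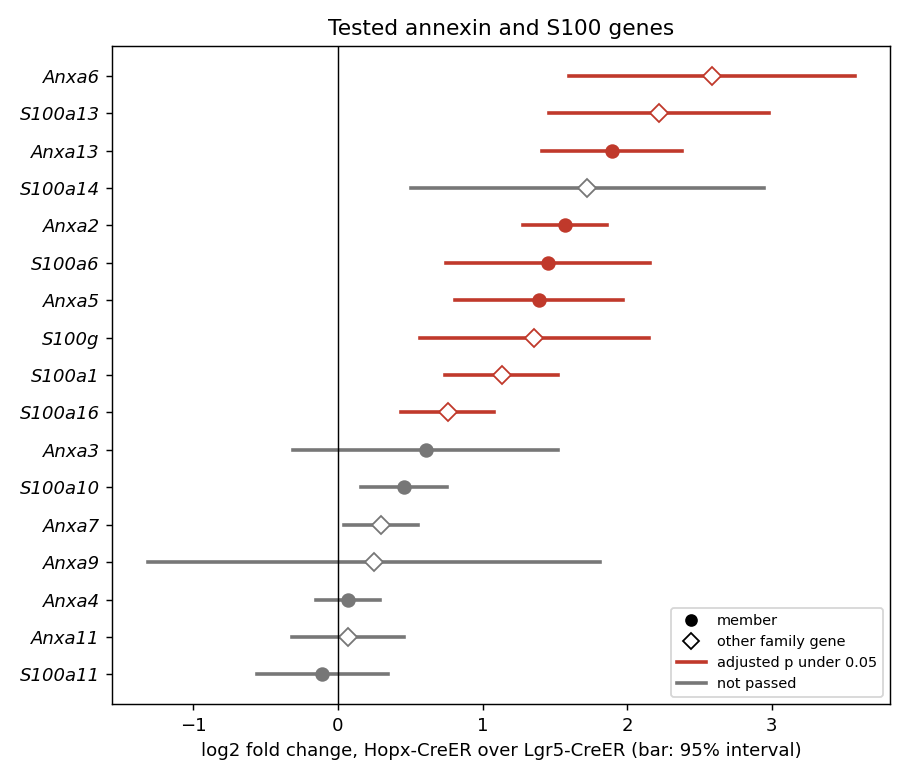
Fold change of Hopx-CreER over Lgr5-CreER libraries on a log2 axis, with its 95% interval, for the 17 tested annexin and S100 genes, with filled circles for the members described first, open diamonds for the other family genes, red for an edgeR adjusted p under 0.05 and grey for genes that did not pass. The 9 genes in red all lie to the right of 0, and the estimates for Anxa4, Anxa11 and S100a11 lie closest to 0.

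Over both families, 17 genes were tested, 9 were higher, 0 were lower and 8 did not pass, beside 9.45% higher and 3.3% lower among all genes tested, and 0 were lower at an unadjusted p under 0.05 or by DESeq2 or limma-voom. The median log2 fold change of the 17 was 1.13. Both families were listed with earlier results of these data known, so these counts too are a description. Most S100 genes lie in a cluster on chromosome 3, and 11 of those in the table fall between 90511034 and 93564643. The 4 higher S100 genes of that region (S100a1, S100a13, S100a16 and S100a6) lie between 90511034 and 90624181. S100a11 and S100a10, which did not pass, lie at its far end, from 93520488 onwards, while S100a14, which did not pass either (adjusted p 0.0690), lies among the 4 higher genes, at 90526856 to 90528837. Of the 28 genes of the table in that region, 10 were tested, and of the 3 that are not S100 genes 1 was higher and 0 were lower by edgeR.

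Over the 6 libraries, log2 CPM of Anxa2, Anxa5, Anxa13, S100a6 and S100a10 ran together, with Pearson's r between pairs of 0.85 to 0.976. S100a11 had an r of -0.334 to 0.357 with the other tested members. These values are a description over 6 libraries in 2 groups, so genes that differ between the groups have a high r with each other. Among 8165 genes that averaged 10 CPM or more, the gene most like Anxa2 in its pattern was Sigirr (r = 0.9991), followed by Tmem37 and Tmem125. Anxa13 was closest to Lypd8 (0.9979), Acot8 and Cyp2c68, and S100a6 to Gstt1 (0.9964), Selenop and Chchd7. Anxa5 was closest to the Paneth cell defensin Defa5 (0.996) and to Psph, and S100a10 to Gabarap (0.9978), Ndufb9 and Dad1. The members with overlapping groups were closest to Tmem141 (0.9873) and Gclm (Anxa4), Cyp20a1 (0.995), Lsm5 and Tmem138 (S100a11), and Hacd2 (0.9876), Psmd10 and Rchy1 (Anxa3). Each of these genes was picked for its high r out of 8165 genes over 6 libraries. Such a pick gives an r near these values also for members whose groups overlap.

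Markers of differentiated cells moved in the same direction as the members that rose. The calls in the lists below stand beside 9.45% higher and 3.3% lower among all genes tested. These lists were chosen with earlier results of these data known. Their calls were not followed with the pair of Lgr5-CreER columns summed, where 790 of all genes were called against 1586. The 18 enterocyte genes summed to 4838, 4080 and 7554 CPM in Hopx-CreER libraries 1, 2 and 3 and to 2175 to 2697 CPM in Lgr5-CreER libraries, with 14 of 18 tested genes higher. The 15 enteroendocrine genes summed to 3614, 9303 and 5890 CPM in the same Hopx-CreER libraries and to 235 to 415 CPM in Lgr5-CreER libraries, with 13 of 15 higher. Tuft genes, of which Gnat3 was at 0, summed to 978, 789.5 and 241 CPM against 112 to 164 CPM, with 10 of 12 tested genes higher. Paneth genes summed to 16397, 15375 and 33252 CPM against 1709 to 3381 CPM (12 of 13 higher) and goblet genes to 7404, 11159 and 7544 CPM against 2138 to 2868 CPM (9 of 11 higher). Within the Hopx-CreER group, the enterocyte and Paneth sums were highest in library 3, as were Anxa2, S100a10 and, of the other family genes called, S100g. The goblet and enteroendocrine sums were highest in library 2, as were the other 7 members and the other 4 of those called genes (Anxa6, S100a1, S100a13 and S100a16). The tuft sum was highest in library 1. Some of these ranks rest on small margins, such as S100a10 at 207 and 210 CPM and Anxa5 at 39.8 and 38.8 CPM in libraries 2 and 3. Ranks among 3 libraries do not tie a gene to a cell type. Lgr5 itself stood at 52.8, 50.3 and 21.0 CPM against 103, 110 and 110 CPM. The Lgr5 stem cell genes summed to 3519 to 5408 CPM against 11153 to 11626 CPM, with 11 of 12 lower. The part of these cell types in the levels of the annexins and S100 genes was not tested.

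Annexins and S100 genes are also made by immune and stromal cells, whose markers were summed in the same way. The 15 immune genes summed to 2.26 to 8.16 CPM in Hopx-CreER and 2.21 to 4.23 CPM in Lgr5-CreER libraries, Itgax and Adgre1 were at 0, and 0 of the 2 tested passed by edgeR. Of the 15 stromal and endothelial genes, 9 were in the table, Col1a1 and Cdh5 were at 0, and the sum was 31.6 to 42.4 CPM against 7.60 to 9.24 CPM. Vim, the single higher member of that list, made most of it, at 23.8, 33.2 and 27.0 CPM against 2.21, 2.16 and 3.30 CPM. Without Vim the sum was 7.61 to 9.22 CPM against 5.44 to 7.03 CPM. The part of immune and stromal cells in the levels of the annexins and S100 genes was not tested.

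**Figure D4:**
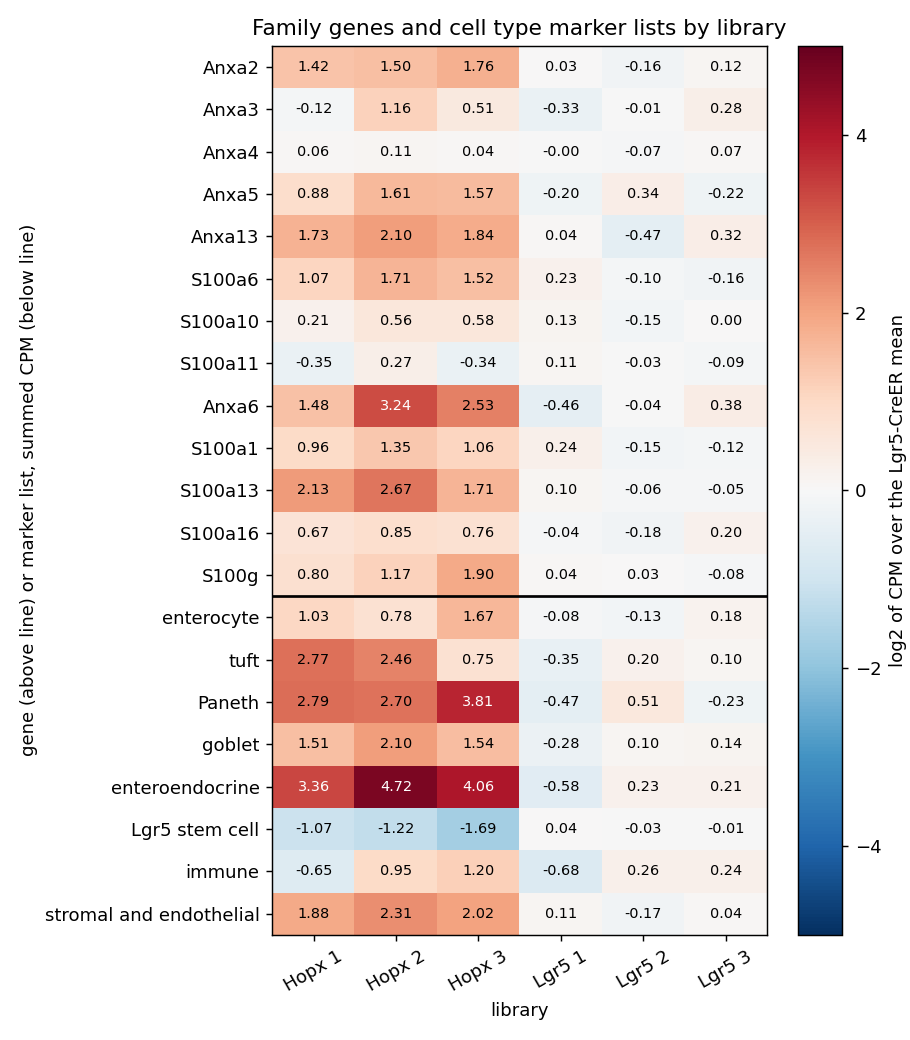
Each cell gives log2 of the level in a library over the mean of the 3 Lgr5-CreER libraries, for family genes (above the line) and for the summed CPM of cell type marker lists (below it). Anxa4 lay between -0.07 and 0.11 in all 6 libraries, while Anxa2 was at 1.42 to 1.76 and the enteroendocrine list at 3.36 to 4.72 in the Hopx-CreER libraries.

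Genes whose proteins bind annexins or S100 proteins gave no call by edgeR. Of 20 such genes listed, 15 were in the table and 12 were tested, and 0 passed in either direction, beside 12.8% called among all genes tested, a share at which few calls would fall among 12 genes. At an unadjusted p under 0.05 there was 1 higher and 1 lower, DESeq2 called 1 as higher, edgeR with no count filter called Hnrnpa2b1 as lower, and limma-voom called 0. The median log2 fold change of the 12 was -0.50. The 1 gene called by DESeq2 was Sri, a calcium-binding partner of Anxa7, named after its values were seen, at 471, 482 and 489 CPM against 396, 347 and 404 CPM (edgeR adjusted p 0.0661). Cacybp, a protein named for its binding of S100a6, stood at 46.2, 51.6 and 17.4 CPM against 51.5, 69.8 and 59.7 CPM, with Hopx-CreER library 3 lowest (log2 fold change -0.65 ± 0.34, SE, edgeR adjusted p 0.250). Cacybp and Hnrnpa2b1 too are named after their values were seen.

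Most membrane repair and traffic genes did not pass the test. Of 24 listed genes 20 were tested, 3 were higher, 0 lower and 17 did not pass by edgeR, beside 9.45% higher among all genes, and the median was 0.21. The higher genes were Ehd1, which recycles membrane from endosomes (log2 fold change 0.78 ± 0.18, SE, edgeR adjusted p 0.0232), Capns1, the shared small subunit of calpains (0.68 ± 0.16, 0.0243), and Chmp2a, an ESCRT-III subunit (0.43 ± 0.12, 0.0455). At an unadjusted p under 0.05, 1 gene was lower by edgeR, and DESeq2 and limma-voom called 0 lower after adjustment. Capn1, named after its values were seen, was called lower by edgeR with no count filter (3 higher, 1 lower) and with GC offsets, where Ehd1 was the 1 higher gene and the calls of Capns1 and Chmp2a ended. None of the 3 calls held without Lgr5-CreER library 2, without library 3 of that group, or with the pair of columns summed, where 0 genes of the list passed, and without Hopx-CreER library 2 only Ehd1 passed.

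Anxa1 is one of the genes described as raised in fetal-like and regenerating crypt epithelium, and other genes of that description were looked at beside it. Of 20 listed, 13 were tested, with 3 higher and 1 lower by edgeR, beside 9.45% higher and 3.3% lower among all genes tested, and a median of 0.73. The higher genes were Krt8 and Krt18, a pair of simple epithelial keratins (log2 fold change 1.00 ± 0.12 and 0.73 ± 0.10, SE, edgeR adjusted p 0.00122 and 0.00239), and Emp1, a membrane protein (1.92 ± 0.31, 0.00470). The lower gene was Clu, a secreted chaperone, at 1.88, 2.37 and 1.86 CPM against 10.6, 6.31 and 9.98 CPM (-2.14 ± 0.33, 0.00388). Both keratins are also in the list of epithelial identity genes. Ly6a did not pass (1.08 ± 0.44, 0.150), and Spp1 was at 0 in all libraries. Without Lgr5-CreER library 1, 7 genes of this list passed, 6 of them higher. DESeq2 and edgeR with no count filter each called 6, with 5 higher and 1 lower. At an unadjusted p under 0.05, 8 were higher and 1 lower by edgeR.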

How the data were processed

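RNA of sorted crypt cells was extracted with TRIzol LS, turned into cDNA with a SMART-Seq kit and made into libraries with Nextera XT, per the labels' protocols, and neither kit marks strand. The deposited table holds the authors' raw counts per gene, under versioned mouse Ensembl identifiers. The submitters' processing notes name kallisto, edgeR and the human build GRCh38 without role or version, and no source used here describes the counting step. Columns were assigned to groups by the marker in their names, and library numbers follow column order and are names only. All 6 columns of values were used.

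Symbols, coordinates and lengths came from GENCODE M21 (GRCm38), which matched 23479 of 23565 identifiers. Genes were filtered with filterByExpr, scaled with TMM and tested with edgeR's quasi-likelihood test, with Benjamini-Hochberg adjustment over 12439 genes and a threshold of 0.05 (R 4.3.3, edgeR 4.0.16). Standard errors were derived from the F statistic, and intervals are 95% intervals. The common biological coefficient of variation was 22.5%. Log2 CPM used a prior count of 2. The edgeR fit was run on simulated counts with dispersions taken from these data, and the other steps were not tested in this way. Library totals of 10839306 to 14570555 counts set the precision of scarce genes, and the floor of 3 counts covers counting error only, since cDNA was amplified without molecular identifiers.

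Alternatives were other scaling factors, other count filters, GC offsets, DESeq2 1.42.0, limma-voom (limma 3.58.1), leaving out each library and summing the pair of columns that share a number. The sum combined with leaving out Hopx-CreER library 3 was chosen after seeing the data. The members, gene lists and tests were chosen with earlier results of these data known. Named genes were all members, every other annexin and S100 gene with a count, called genes of the 3 related lists with a mean of at least 1 CPM, and the 3 genes most like each member among those with a mean of at least 10 CPM. Some genes that this rule names are not reported here. RefSeq promoter windows of 250 bases before each start were searched for the motifs. Near-identical copies were sought with BLAST at 90% identity over at least 200 bases.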

Additional observations from a re-analysis of the deposited data

How the results depend on the processing

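Anxa2, Anxa5 and Anxa13 kept their calls in all 17 alternatives. The number of members called was 4 and ran from 3 to 5, and leaving out 1 library in turn gave 3 to 5. Direction turned in Anxa4 with library totals alone (log2 fold change -0.042) and in S100a11 without Hopx-CreER library 1 (0.009), neither of which had passed, and leaving out 1 library gave S100a11 values of -0.341 to 0.009. Over all genes, 1586 were called, 723 to 1868 when 1 library was left out and 790 with the pair of Lgr5-CreER columns that share a number summed. The lowest of these was without Lgr5-CreER library 2, with 944 without library 1 and 882 without library 3. The higher and lower calls of 1176 and 410 became 938 and 729 with library totals alone and 1044 and 1037 with GC offsets. Of the other annexins and S100 genes 5 were called, and 3 to 5 when 1 library was left out. Binding partners went from 0 calls to 1 with no count filter and to 1 with DESeq2. Membrane repair genes went from 3 calls to 0 with the columns summed, to 0 with Hopx-CreER library 3 left out as well, and to 0 to 4 when 1 library was left out. The fetal-like list went from 4 calls to 4 to 7 when 1 library was left out, and to 6 with DESeq2 and with no count filter. The difference in the log2 ratio of Anxa2 to S100a10 ran from 1.061 to 1.2 when 1 library was left out. The cause of these shifts was not tested. Depth limits Anxa1, Anxa10 and the scarcest S100 genes, which had too few counts to be tested. No paired analysis was possible because the columns carry none of the replicate numbers of the labels.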
